A study of Mus musculus with 6 samples.

Results

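Complement genes were examined in mammary tumors of NeuT/ATTAC mice given IgG or anti-PD-1. The 9 genes were found by the symbol of their Ensembl gene ID in the mouse GRCm38 annotation, and are 9 of the 54532 gene IDs listed for each tumor. They are C1qa (ENSMUSG00000036887), C1qb (ENSMUSG00000036905), C1qc (ENSMUSG00000036896), C1s1 (ENSMUSG00000038521), C2 (ENSMUSG00000024371), C3 (ENSMUSG00000024164), C4b (ENSMUSG00000073418), Cfb (ENSMUSG00000090231) and Serping1 (ENSMUSG00000023224). All 9 were above 0 in every tumor, and 8 of them passed the filter on low expression, which kept 15040 genes. Cfb did not pass and was not tested.

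The series holds 3 tumors from IgG-treated and 3 from anti-PD-1-treated mice, with 1 RNAseq library per tumor. All mice carried both the MMTV-NeuT transgene, in which the MMTV promoter drives Erbb2 in mammary epithelium, and the FAT-ATTAC transgene, through which AP20187 kills fat cells and induces mammary fibrosis. FAT-ATTAC came from C57BL/6 mice and was bred into FVB. Both groups received AP20187 (0.4 mg/kg from 6 weeks of age), which the sample labels give as biweekly and the methods as triweekly, so the comparison holds no tumor from mice without AP20187. From 8 weeks of age the mice were given 100 μg of a murine anti-PD-1 mAb or of a matching IgG, 2 injections per week. The labels list separate samples while a legend of the study speaks of pooled RNA, so the p-values measure the spread between these 6 samples, whatever each one holds. Values are FPKM (fragments per kilobase of exon, scaled to the library's total), which allow levels of different genes to be compared. Sets of 3 values are given in the order of the replicate numbers 1 to 3.

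Complement is a cascade of secreted proteins that tags cells and debris. In the classical pathway the recognition molecule C1q, built from the products of C1qa, C1qb and C1qc, carries the proteases C1r and C1s, which cut C4 and C2. The alternative pathway uses C3 together with factor B, the product of Cfb, and both pathways meet at the cleavage of C3. Serping1 encodes the C1 inhibitor, which removes C1r and C1s. The liver makes most circulating complement, whereas C1q comes mainly from macrophages and dendritic cells, and fibroblasts and epithelial cells make several of the other components locally.

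Recovered sequencing depth lay between 21075641 and 23852764 reads per tumor. All 8 markers of mammary tumor epithelium passed the filter with none at 0, and their sum did not overlap between the groups, at 2168 to 3043 FPKM with IgG and 3116 to 3993 FPKM with anti-PD-1. The median of the list, set against the 6-tumor mean on the log2 scale, did overlap. It was 0.0054, -0.10 and -0.38 with IgG and 0.12, 0.05 and -0.02 with anti-PD-1. Of the 8, 6 had a higher and 2 a lower mean with anti-PD-1, against 50.8% and 49.2% of all genes tested. The groups did not overlap in 2 of the 8 with higher and 1 with lower values, where all genes gave 9.31% and 8.75%. Epcam was between 683 and 878 FPKM with IgG and between 986 and 1142 FPKM with anti-PD-1, whereas Krt19 was lower, between 7.39 and 77.3 FPKM with IgG and between 1.69 and 5.23 FPKM with anti-PD-1. The part of epithelial content in the levels of the complement genes was not tested. Hepatocyte markers were low. Their 9 genes summed to between 1.18 and 10.1 FPKM with IgG and between 3.38 and 7.67 FPKM with anti-PD-1, and 8 of them were listed at 0 in at least 1 tumor. Alb (albumin) was above 0.1 FPKM in IgG replicates 2 and 3 alone. Ahsg (fetuin-A), the ninth, went the other way, with 0.267, 0.659 and 1.59 FPKM with IgG and 2.96, 3.06 and 7.11 FPKM with anti-PD-1 (log2 fold change 1.53, unadjusted p = 0.00425 and adjusted p = 0.344 from limma). None of 6 T cell markers and none of 4 B cell markers passed the filter. Skeletal muscle markers split the tumors across the groups, with a sum between 67.5 and 121 FPKM in IgG replicate 2 and anti-PD-1 replicates 1 and 2 and between 6.24 and 8.85 FPKM in the other three.

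C1q stood at the top of the 9 genes. Over the 6 tumors the mean was 160 ± 45.0 FPKM (SD, n = 6) for C1qa, 92.6 ± 28.9 for C1qb and 50.3 ± 13.8 for C1qc. Serping1 followed with 22.5 ± 10.8 FPKM, C4b with 13.2 ± 6.27 and C3 with 9.40 ± 3.19. C1s1 had 3.96 ± 2.19 FPKM, C2 had 0.907 ± 0.587 and Cfb had 0.323 ± 0.202. Within single tumors, C1qa lay above C1qb, C1qb above C1qc, C1qc above Serping1, C3 above C1s1 and C1s1 above C2 in 6 of 6. The order was less firm elsewhere, since Serping1 exceeded C4b in 4 of 6 tumors, C4b exceeded C3 in 5 of 6 and C2 exceeded Cfb in 5 of 6. The central protein of the cascade, C3, was thus listed far below the C1q genes in every tumor.

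**Figure D1:**
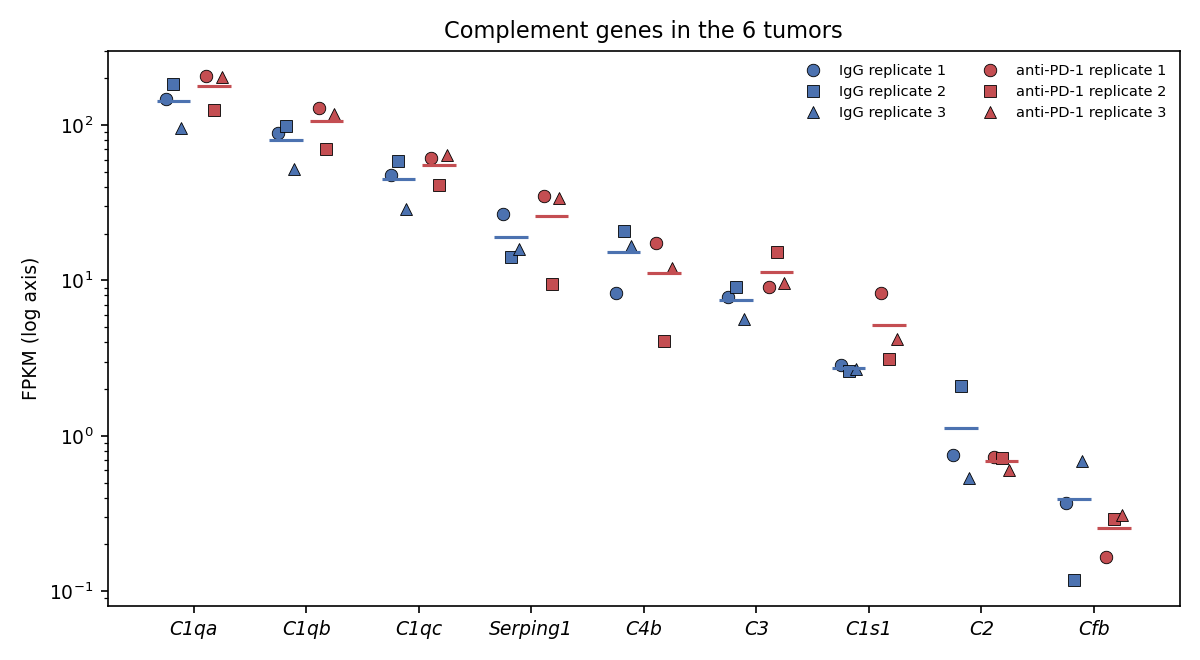
FPKM of the 9 complement genes in each tumor on a log axis, ordered by the mean over the 6 tumors. Symbols are single tumors and bars are group means, with IgG in blue and anti-PD-1 in red. C1qa lies between 96.4 and 207 FPKM and Cfb between 0.117 and 0.689 FPKM, and the 2 groups separate in C1s1 alone.

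None of the 8 members tested differed between anti-PD-1 and IgG tumors at an adjusted p under 0.05 (limma, smallest adjusted p of 0.428, for C1s1), and none had an unadjusted p under 0.05. Over all genes tested, the same fit called 0% of 15040 genes at the adjusted threshold and 12.3% at the unadjusted one. With limma's voom on the recovered reads, 1 gene passed the adjusted threshold and it was no member. The mean log2 value was higher in anti-PD-1 tumors in 6 of the 8 members, against 50.8% of all genes tested. The median log2 fold change of the 8 was 0.33, against 0.01 for all genes tested. The groups did not overlap in 1 of the 8, C1s1, where anti-PD-1 was higher, against 18.1% of all genes in either direction and 9.31% in that one. In bulk tumors, fewer cells of a type and less RNA per cell cannot be told apart.

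**Figure D2:**
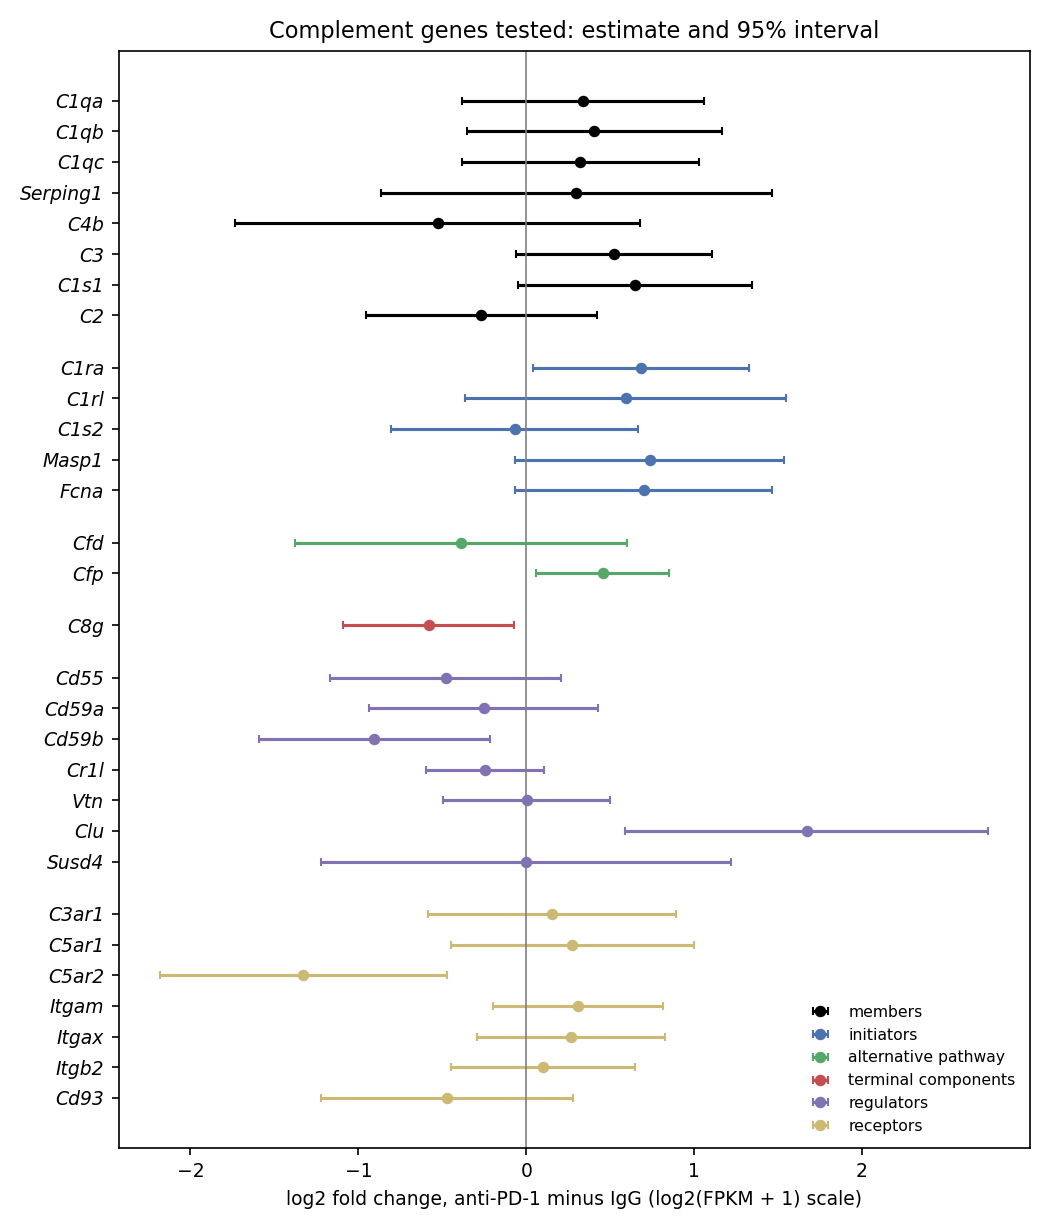
Log2 fold change (anti-PD-1 minus IgG, on the log2(FPKM + 1) scale) with its 95% interval from limma for the 8 complement members tested and 22 of the 23 other complement genes tested, colored by their place in the cascade. All 8 intervals of the members reach across 0, and the point farthest to the right is Clu, at 1.67.

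The C1q genes encode the A, B and C chains of C1q. They lie side by side on the minus strand of chromosome 4 within 18.7 kb, in the order C1qb (136880129 to 136886187), C1qc (136889804 to 136893065) and C1qa (136895917 to 136898803). C1qa had 147, 183 and 96.4 FPKM with IgG and 207, 124 and 204 FPKM with anti-PD-1. IgG replicate 3 was the lowest tumor and anti-PD-1 replicates 1 and 3 the highest, and IgG replicate 2 lay above anti-PD-1 replicate 2. The same tumor was lowest and the same pair highest in C1qb, with 88.4, 98.6 and 52.0 FPKM with IgG and 128, 69.7 and 119 FPKM with anti-PD-1. C1qc had 47.7, 58.9 and 28.8 FPKM with IgG and 61.2, 40.9 and 64.3 FPKM with anti-PD-1. The groups overlapped in all 3 genes. Between 1372 and 5527 reads stood behind each of these values.

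C1qa differed by a log2 fold change of 0.34 (95% interval -0.38 to 1.06, adjusted p = 0.673 from limma). It was 0.40 for C1qb (-0.36 to 1.16, adjusted p = 0.627) and 0.32 for C1qc (-0.38 to 1.03, adjusted p = 0.681). The exact permutation test of 3 tumors against 3, which cannot go below p = 0.1, gave 0.5, 0.4 and 0.5. The intervals hold a doubling as well as a decrease, and neither could be told from no difference with 3 tumors per group. Without IgG replicate 3, the lowest tumor, the log2 fold changes of C1qa, C1qb and C1qc were 0.0841, 0.13 and 0.0375, and without anti-PD-1 replicate 2 they were 0.58, 0.68 and 0.53. C1qa and C1qc were both 0.54 without IgG replicate 2.

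The chains varied together from tumor to tumor. The level of C1qa relative to C1qb ran from 1.62 to 1.85 and that of C1qa relative to C1qc from 3.04 to 3.38, although C1qa itself varied 2.15-fold. The ratio of C1qb to C1qc was between 1.67 and 2.09. The highest of the 6 values was 1.15, 1.11 and 1.25 times the lowest for the 3 ratios. Exact permutation tests of the log2 ratios between the groups gave p = 0.3, p = 0.9 and p = 0.5.

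Of the RefSeq promoter windows of the mouse genome (GRCm38.p6), 4 of the 9 members had an entry. All 4 are shown, here those of C1qb and C1qc, neighboring genes whose levels varied together, and below those of C3 and C1s1. Only bases upstream of every annotated exon are given, 250 for C1qb (chr4:136886201-136886450, minus strand) and 99 for C1qc (chr4:136893066-136893164, minus strand). Capitals mark GAGGAA on either strand, the core bound by PU.1, a transcription factor of macrophages.
C1qb: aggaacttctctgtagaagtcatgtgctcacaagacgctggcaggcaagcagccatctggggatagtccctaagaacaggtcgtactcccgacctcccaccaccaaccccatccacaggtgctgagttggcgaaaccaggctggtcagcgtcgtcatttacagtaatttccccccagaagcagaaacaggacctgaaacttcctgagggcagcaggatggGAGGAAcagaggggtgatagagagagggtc
C1qc: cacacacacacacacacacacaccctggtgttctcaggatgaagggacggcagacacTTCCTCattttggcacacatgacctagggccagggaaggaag
The match starts 30 bases upstream of the RefSeq start site in C1qb and 193 bases upstream in C1qc, where it lies on the opposite strand as TTCCTC. These letters are common, since 23.3% of 32851 RefSeq promoter windows hold them within 250 bases upstream. Other motifs were sought on both strands. Neither the interferon-stimulated response element (GAAA, any 2 bases, GAAA, found in 2.98% of windows) nor the gamma-activated site (TTC, any 3 bases, GAA, in 7.02%) nor the NF-κB site (GGGAA, any base, TTCC, in 0.283%) was in the bases examined of the 4 members.

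The median of the macrophage markers and C1q were low and high in several of the same tumors. All 15 passed the filter, none was at 0 in any tumor, and their summed level was between 391 and 926 FPKM with IgG and between 610 and 815 FPKM with anti-PD-1. Set against the 6-tumor mean on the log2 scale, the median of the list was -0.14, 0.19 and -0.35 with IgG and 0.10, -0.36 and 0.39 with anti-PD-1. C1qa in the same tumors was -0.07, 0.24 and -0.67 with IgG and 0.42, -0.31 and 0.40 with anti-PD-1. Both were low in IgG replicate 3 and anti-PD-1 replicate 2 and high in IgG replicate 2 and anti-PD-1 replicate 3. The part of macrophage number in the level of C1q was not tested. The mean was higher with anti-PD-1 in 13 of the 15, against 50.8% of all genes tested, with a median log2 fold change of 0.11, and 2 of the 15, Cd68 and Fcer1g, had an unadjusted p under 0.05, against 6.22% of all genes in that direction. Among single markers, Adgre1 (F4/80) had 7.21 ± 1.44 FPKM (SD, n = 3) with IgG and 7.33 ± 2.03 with anti-PD-1. Cd68, a lysosomal protein of macrophages, had 18.1, 15.1 and 13.7 FPKM with IgG and 22.1, 30.5 and 29.1 FPKM with anti-PD-1 (log2 fold change 0.76, adjusted p = 0.344 from limma). Cd68 did not follow C1q, being highest in anti-PD-1 replicate 2, where C1q was low. The ratio of C1qc to Adgre1 came to 6.15 ± 1.09 with IgG and to 7.64 ± 0.674 with anti-PD-1, without overlap (exact permutation test, p = 0.1). The ratio of C1qc to Cd68 overlapped, at 2.88 ± 0.927 and 2.11 ± 0.721 (exact permutation test, p = 0.5).

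The C1q genes lie on a chromosome whose median differed between the groups. The median deviation of the 925 tested genes of chromosome 4 was -0.09, 0.35 and 0.31 with IgG and -0.16, -0.22 and -0.24 with anti-PD-1. C1qa had the same sign as this median in IgG replicates 1 and 2 and anti-PD-1 replicate 2 and the opposite sign in the other three. The part of the chromosome's difference in the level of C1q was not tested. With each tumor centered on the median of the chromosome, the log2 fold change became 0.73 for C1qa, 0.80 for C1qb and 0.72 for C1qc, with an adjusted p of at least 0.464 (limma).

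**Figure D3:**
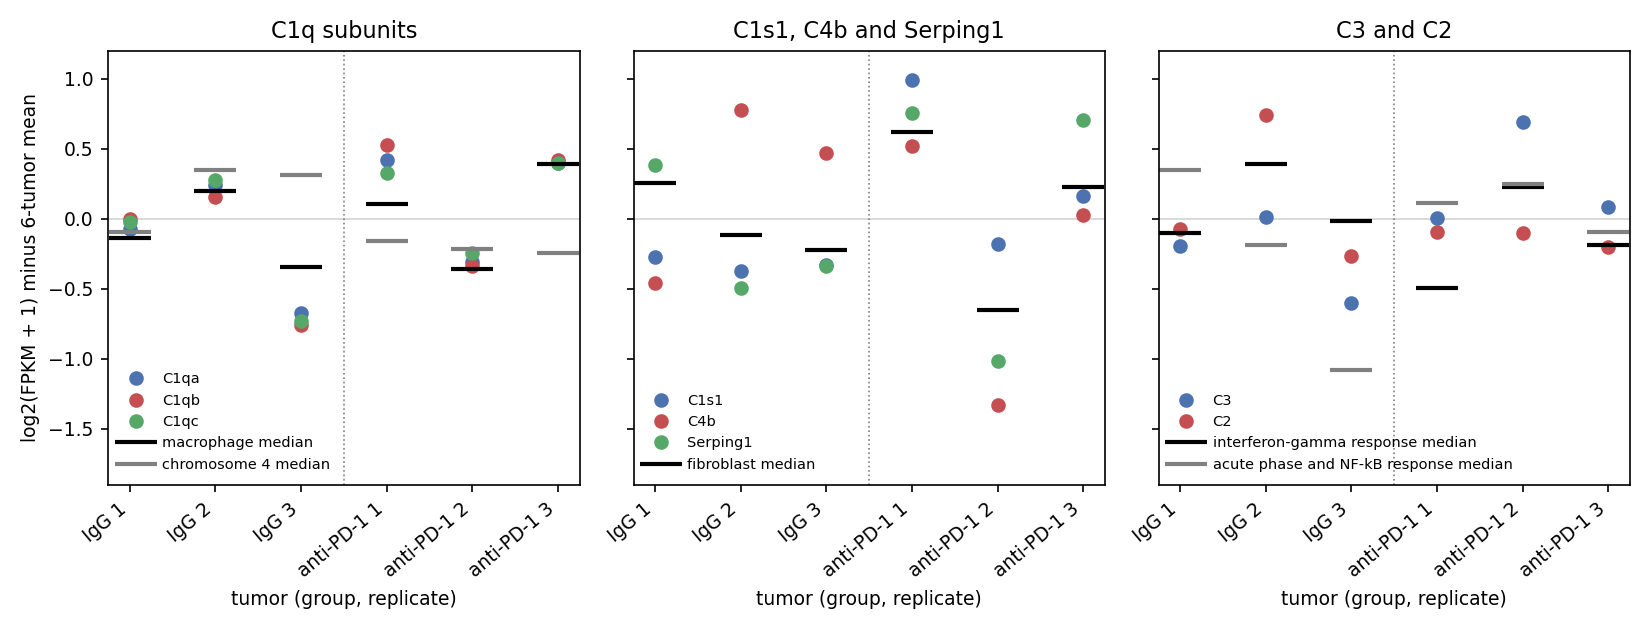
Deviation of log2(FPKM + 1) from the 6-tumor mean in each tumor. Colored points are complement genes, and horizontal marks are medians over the tested genes of a marker list, a response list or chromosome 4. In the left panel, C1qa, C1qb and C1qc sit close together in each tumor, from -0.76 in IgG replicate 3 to 0.53 in anti-PD-1 replicate 1.

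C1s1 encodes C1s, the protease of the C1 complex that cuts C4 and C2. It lies on the minus strand of chromosome 6 (124530345 to 124542359). C1s1 had 2.85, 2.60 and 2.71 FPKM with IgG and 8.27, 3.12 and 4.21 FPKM with anti-PD-1. The IgG tumors were nearly alike, and every anti-PD-1 tumor lay above them, anti-PD-1 replicate 1 by far and anti-PD-1 replicate 2 only just. Its log2 fold change was 0.65 (95% interval -0.05 to 1.35, adjusted p = 0.428 from limma). The exact permutation test gave p = 0.1, the smallest it can give. The fold change came to 0.32 without anti-PD-1 replicate 1 and to 0.90 without anti-PD-1 replicate 2 (unadjusted p = 0.0182 and adjusted p = 0.505 from limma). Between 197 and 664 reads were counted on C1s1, and reads of the antisense gene Gm16567 that overlaps it or of its near copy C1s2 could be among them.

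C1ra, the partner protease of C1s, is the neighbor of C1s1 on the other strand (chromosome 6 from 124512405 to 124523443) and had a similar profile. It had 5.52, 3.84 and 5.28 FPKM with IgG and 11.5, 5.36 and 9.31 FPKM with anti-PD-1, with anti-PD-1 replicate 2 inside the IgG range. For C1ra the log2 fold change was 0.68 (95% interval 0.04 to 1.33, unadjusted p = 0.0406 and adjusted p = 0.394 from limma). The ratio of C1ra to C1s1 was 1.79 ± 0.269 (SD, n = 3) with IgG and 1.77 ± 0.412 with anti-PD-1 (exact permutation test, p = 1).

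Serping1, the C1 inhibitor (chromosome 2 from 84765387 to 84775444), was the most abundant member outside C1q and was uneven within the anti-PD-1 group. It had 26.8, 14.1 and 15.9 FPKM with IgG and 35.0, 9.53 and 33.8 FPKM with anti-PD-1. Anti-PD-1 tumors were both the highest and the lowest of the 6. The log2 fold change was 0.30 (95% interval -0.87 to 1.47, adjusted p = 0.834 from limma), and it was 0.88 without anti-PD-1 replicate 2 (unadjusted p = 0.0243, adjusted p = 0.518) and -0.00386 without anti-PD-1 replicate 1. The ratio of inhibitor to protease, Serping1 to C1s1, ran from 3.06 to 9.40, a wider span than that between any pair of C1q chains.

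C4b encodes C4, which the C1 complex cuts and which binds covalently to target surfaces (chromosome 17 from 34728380 to 34743882). It had 8.32, 20.9 and 16.7 FPKM with IgG and 17.3, 4.08 and 12.0 FPKM with anti-PD-1. Anti-PD-1 replicate 2 was the lowest and IgG replicate 1 the next lowest, so that each group held a low tumor. For C4b the log2 fold change was -0.53 (95% interval -1.73 to 0.68, adjusted p = 0.699 from limma) and came to 0.00819 without anti-PD-1 replicate 2. Its near copy C4a, on the same chromosome, had at most 0.432 FPKM, and reads shared between the 2 copies could not be separated.

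Fibroblast markers varied in the same tumors. All 11 passed the filter with none at 0, and they summed to between 94.9 and 260 FPKM with IgG and between 104 and 380 FPKM with anti-PD-1. The mean was higher with anti-PD-1 in 7 of the 11, against 50.8% of all genes tested. None of the 11 had an unadjusted p under 0.05, where all genes gave 12.3%. The median deviation of the list was 0.25, -0.12 and -0.23 with IgG and 0.62, -0.65 and 0.23 with anti-PD-1. Serping1 deviated by 0.38, -0.50 and -0.34 in IgG and by 0.76, -1.02 and 0.71 in anti-PD-1 tumors, with the same sign as the fibroblast list in 6 of 6 tumors. C4b, at -0.46, 0.77 and 0.47 in the IgG tumors, had the opposite sign there. In the anti-PD-1 tumors C4b had the same sign as the list, at 0.52, -1.33 and 0.03. C1s1 had the opposite sign in IgG replicate 1 (-0.28) alone. Anti-PD-1 replicate 2, the lowest tumor in C4b, Serping1 and the median deviation of the fibroblast list, was not the lowest in C1s1. By the summed FPKM of the fibroblast list, IgG replicate 2 was lower, at 94.9 against 104 FPKM. The part of fibroblast number in these levels was not tested.

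C3 (chromosome 17 from 57203970 to 57228136) is the protein on which all complement pathways converge. It had 7.78, 9.10 and 5.62 FPKM with IgG and 9.07, 15.2 and 9.65 FPKM with anti-PD-1. The groups touched at a single point, as the lowest anti-PD-1 tumor lay just under the highest IgG tumor. The log2 fold change of C3 was 0.52 (95% interval -0.06 to 1.10, adjusted p = 0.435 from limma, and p = 0.2 in the exact permutation test) and lay between 0.31 and 0.66 when any single tumor was omitted, lowest without anti-PD-1 replicate 2. Between 712 and 1908 reads were counted on it.

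C3 and C4b had their extremes in the same tumor. In anti-PD-1 replicate 2, C3 was at its highest and C4b at its lowest, and the ratio of C4b to C3 was 0.268 there, against 1.07 to 2.98 in the other 5 tumors. That tumor also had the highest level of Lcn2, a secreted protein of inflamed epithelium, at 6459 FPKM, against 1078 FPKM in IgG replicate 3, where C3 was lowest. A list of 11 acute-phase and NF-κB response genes, Lcn2 among them, of which 9 were tested, had a median log2 fold change of 0.39. No gene of the list had an unadjusted p under 0.05, where all genes gave 12.3%. Icam1, another gene of the list, went the other way from Lcn2. It was highest in IgG replicate 3 (1.66 FPKM) and lowest in anti-PD-1 replicate 2 (0.432 FPKM). The median deviation of the list was -1.08 in IgG replicate 3 and 0.25 in anti-PD-1 replicate 2, and 0.35 in IgG replicate 1, where C3 was below its mean. The part of this response in the level of C3 was not tested.

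The upstream bases of C3 (chr17:57228137-57228386, minus strand) and C1s1 (chr6:124542360-124542609, minus strand) are those of the remaining members with a RefSeq entry. These members also had the smallest p-values of the 8. Capitals mark TTGCNNAA on either strand, letters bound by C/EBP factors, which act in the acute-phase response.
C3: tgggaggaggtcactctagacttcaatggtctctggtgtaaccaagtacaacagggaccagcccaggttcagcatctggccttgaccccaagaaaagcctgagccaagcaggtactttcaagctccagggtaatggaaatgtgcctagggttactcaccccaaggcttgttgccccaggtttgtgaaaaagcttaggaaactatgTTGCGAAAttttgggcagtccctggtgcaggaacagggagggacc
C1s1: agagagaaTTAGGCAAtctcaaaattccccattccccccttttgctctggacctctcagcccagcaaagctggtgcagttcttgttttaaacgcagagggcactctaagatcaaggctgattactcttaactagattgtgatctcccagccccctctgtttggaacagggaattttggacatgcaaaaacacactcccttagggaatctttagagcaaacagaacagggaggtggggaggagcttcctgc
The match lies 45 bases upstream of the start site in C3 and 242 bases upstream in C1s1, there on the opposite strand. The same letters were found in 9.56% of all RefSeq windows, and the GAGGAA core was in neither.

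C2, the protease that pairs with C4, and Cfb, its counterpart in the alternative pathway, are neighbors on chromosome 17 and are separated by 85 bases (C2 from 34862604 to 34898265, Cfb from 34856374 to 34862518). Together with C4b they lie within 170 kb. C2 had 0.756, 2.09 and 0.534 FPKM with IgG and 0.735, 0.719 and 0.605 FPKM with anti-PD-1. IgG replicate 2 stood apart, with the other 5 tumors between 0.534 and 0.756 FPKM. The log2 fold change of C2 was -0.27 (95% interval -0.96 to 0.42, adjusted p = 0.735 from limma) and 0.04 without IgG replicate 2. It was -0.43 with 0.1 added to the FPKM and -0.47 with voom.

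Cfb had few reads, with 23, 8 and 48 reads with IgG and 12, 20 and 21 reads with anti-PD-1. These reads came to 0.391 ± 0.287 FPKM (SD, n = 3) with IgG and 0.256 ± 0.0787 FPKM with anti-PD-1 (exact permutation test, p = 0.6). C2 was highest and Cfb lowest in IgG replicate 2, and the ratio of C2 to Cfb was 17.9 there and between 0.775 and 4.44 elsewhere. Gm20547 overlaps both genes, so that some reads could belong to either.

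Interferon-γ response genes, a program known to include several complement genes, had a lower mean in anti-PD-1 tumors in 14 of 16 genes, against 49.2% of all genes tested, with a median log2 fold change of -0.22. Iigp1 alone of the 16 had an unadjusted p under 0.05, where all genes gave 12.3% (adjusted p = 0.344 from limma). The median deviation of the list was highest in IgG replicate 2 (0.39), the tumor with the highest C2, and lowest in anti-PD-1 replicate 1 (-0.50), the tumor with the highest C1s1. In anti-PD-1 replicate 2 the list was above its mean (0.22) and C2 below (-0.10), and where C2 was lowest, in IgG replicate 3, the list was at -0.02. The part of interferon in the level of C2 was not tested.

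Of 46 other complement genes, 23 passed the filter. None of the 23 had an adjusted p under 0.05 (limma). At an unadjusted p under 0.05, anti-PD-1 tumors were higher in 3 genes and lower in 3, against 6.22% higher and 6.06% lower of all genes tested. The median log2 fold change of the 23 was 0.00. Clu and C5ar2 were under that threshold in all of 15 alternatives of the fit, whereas it was missed by C1ra in 7 of 15, by Cfp in 6 of 15, voom and the replicate block among them, by C8g in 7 of 14 and by Cd59b in 2 of 14. In place of 6 genes, 3 were under that threshold without anti-PD-1 replicate 1 and likewise without anti-PD-1 replicate 3. The groups did not overlap in 2 of the 23 genes with higher and 4 with lower values in anti-PD-1 tumors, where all genes gave 9.31% and 8.75%.

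Clusterin, the product of Clu, binds terminal complement complexes and also acts as an extracellular chaperone. It was the most abundant gene of these lists. Clu had 253, 161 and 74.1 FPKM with IgG and 377, 388 and 675 FPKM with anti-PD-1, so the lowest anti-PD-1 value exceeded the highest of IgG. Its log2 fold change was 1.67 (95% interval 0.59 to 2.75, unadjusted p = 0.00798 and adjusted p = 0.344 from limma). Leaving out any single tumor gave between 1.19 and 2.07.

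C5ar2, the second receptor for the fragment C5a, lay in the other direction. It had 9.48, 13.3 and 24.3 FPKM with IgG and 3.37, 6.95 and 5.90 FPKM with anti-PD-1 without overlap (log2 fold change -1.33, 95% interval -2.18 to -0.47, unadjusted p = 0.00773 and adjusted p = 0.344 from limma). The classical C5a receptor, C5ar1, did not share this profile, with 3.09, 3.19 and 1.61 FPKM with IgG and 4.29, 1.88 and 4.19 FPKM with anti-PD-1 (adjusted p = 0.742 from limma). C3ar1, the receptor for C3a, had 4.74 ± 1.80 FPKM (SD, n = 3) with IgG and 5.38 ± 2.12 FPKM with anti-PD-1 (adjusted p = 0.867 from limma). Of the 7 receptors tested, C5ar2 was the one with an unadjusted p under 0.05, a threshold that 12.3% of all genes passed.

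Of 15 other regulators, which limit complement in fluid or on host cells, 8 were tested. The mean was lower in anti-PD-1 tumors in 6 of them, against 49.2% of all genes tested, and 1 higher and 1 lower had an unadjusted p under 0.05, Clu and Cd59b, where all genes gave 6.22% and 6.06%. Cd59b, an inhibitor of the membrane attack complex, had 0.901, 1.81 and 2.72 FPKM with IgG and 0.270, 0.756 and 0.354 FPKM with anti-PD-1, with at most 87 reads (log2 fold change -0.91, unadjusted p = 0.0168 and adjusted p = 0.355 from limma). On scales that shrink low values less, the log2 fold change of Cd59b was -1.74 (0.1 added to the FPKM) and -1.96 (voom on recovered reads). Its more abundant copy Cd59a had 43.0 ± 15.2 FPKM (SD, n = 3) with IgG and 34.4 ± 4.58 with anti-PD-1 (adjusted p = 0.749). Cd55, which speeds the decay of C3 convertases, had 14.3, 23.7 and 15.8 FPKM with IgG and 8.76, 18.1 and 11.6 FPKM with anti-PD-1 (adjusted p = 0.531). Cr1l (Crry), the broad rodent regulator of C3 and C4, differed little in size but without overlap, at 8.33 ± 0.854 and 6.86 ± 0.377 FPKM (log2 fold change -0.24, adjusted p = 0.532). Susd4, a membrane protein, had a log2 fold change of -0.000399.

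Properdin, encoded by Cfp, stabilizes the alternative convertase. Cfp had 5.14, 6.36 and 5.05 FPKM with IgG and 8.08, 6.84 and 8.92 FPKM with anti-PD-1, which did not overlap (log2 fold change 0.46, unadjusted p = 0.0292 and adjusted p = 0.373 from limma). Cfd, the protease that cuts factor B and a major product of fat cells, had 2.42 ± 1.76 FPKM (SD, n = 3) with IgG and 1.54 ± 0.901 with anti-PD-1. Of the 5 adipocyte markers, Fabp4 alone passed the filter. In the lectin pathway, Masp1 had 0.633 ± 0.515 and 1.76 ± 1.05 FPKM and Fcna, a ficolin, 0.886 ± 0.528 and 2.13 ± 1.22 FPKM (adjusted p = 0.433 for both). The log2 fold change of Masp1 was 0.74, and 1.61 with voom (unadjusted p = 0.0331 and adjusted p = 0.361), and that of Fcna was 0.70, and 1.24 with voom. Masp1 was at 0.45 without anti-PD-1 replicate 2 and Fcna at 0.40 without anti-PD-1 replicate 3, and each was under an unadjusted p of 0.05 in 3 of 14 alternatives.

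**Figure D4:**
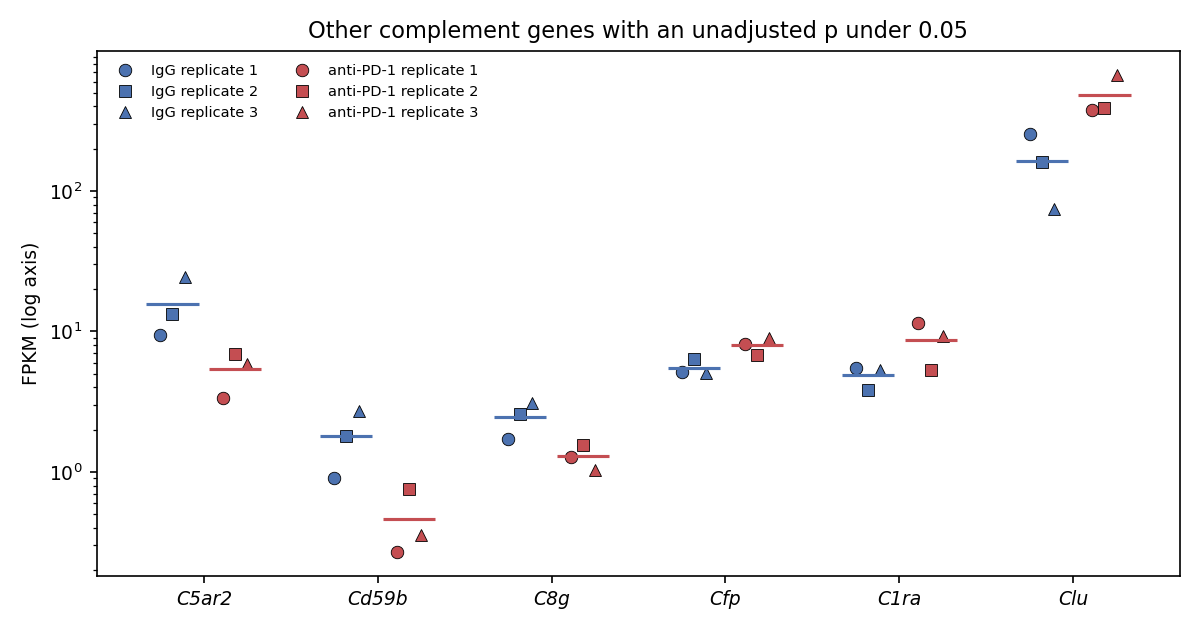
FPKM on a log axis of the 6 other complement genes with an unadjusted p under 0.05, with single tumors as symbols and group means as bars (IgG in blue, anti-PD-1 in red). The groups are apart in C5ar2, Cd59b, C8g, Cfp and Clu and overlap in C1ra.

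The terminal part of the cascade, which forms the membrane attack complex, was low. Of its 7 genes, 6 were below the filter, among them Hc (complement C5) with 14 to 81 reads per tumor and C9 with 0 to 45 reads. C8g, the one that passed, had 2.47 ± 0.696 FPKM (SD, n = 3) with IgG and 1.29 ± 0.264 with anti-PD-1 without overlap (log2 fold change -0.58, unadjusted p = 0.0310 and adjusted p = 0.377 from limma). With voom the log2 fold change of C8g was -0.91 (unadjusted p = 0.0565). Fbxw5 overlaps C8g on the other strand, and reads of one could be counted on the other.

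For each member, the genes with the most similar profile over the 6 tumors were sought among the 7931 genes whose mean reached 5 FPKM. Pearson's r of log2(FPKM + 1) was used as the measure of likeness and is given without a p, since with so few tumors many genes reach a high value. C1qa, C1qb and C1qc had r of at least 0.97 with each other. Outside the members, 1110008P14Rik was the closest to C1qb (r = 0.996), followed by Ppp4r2 and by Lgmn, a lysosomal protease, both at r = 0.990, and Rhoj was the closest to C1qc (r = 0.981). Tex2 was closest to C1s1 (r = 0.994), Rtn3 to C3 (r = 0.996), Sprtn to C4b (r = 0.983), Cul4a to Serping1 (r = 0.984), Lcmt1 to C2 (r = 0.986) and Gm27028 to Cfb (r = 0.967). Between 34 and 119 genes had r over 0.9 with a given member. Beyond the pairs within C1q, r between members ran from -0.84 (C1qc and Cfb) to 0.70 (C1qb and Serping1), so the 9 genes did not share 1 profile.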

How the data were processed

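RNAseq of 6 tumors was taken from the values the authors deposited, which are FPKM per Ensembl gene ID. Per the methods and labels, the authors used FastQC 0.11.9, cutadapt 3.5, a Bowtie2 2.4.1 index of mm10, RSEM 1.3.1 and, for testing, the authors' DESeq2 1.36.0. How the FPKM was made is not given in the sources used here. Of 54532 IDs, 54495 matched GENCODE release M21 (GRCm38).

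FPKM was divided by median-of-ratios factors (1.00 to 1.01). Genes with a mean of at least 0.5 FPKM were tested on log2(FPKM + 1), a scale that understates changes of low genes, with limma 3.58.1 in R 4.3.3 (eBayes with trend, two-sided, Benjamini-Hochberg over 15040 genes). Two-sided exact permutation tests used the 3 log2 values per group. FPKM times merged exon length fell on whole multiples of 1 read, within 0.1, in at least 97.0% of detected values, which gave the read numbers. Python 3.11.15, numpy 2.4.6, pandas 2.3.3, scipy 1.17.1 and matplotlib 3.10.9 were used.

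Named genes were the 9 members, members of complement lists above the filter or given by reads, listed markers, and the genes most like each member. C4a, C9, Hc and the list genes Cd68, Fcer1g, Epcam, Krt19, Alb, Ahsg, Iigp1, Lcn2, Icam1 and Fabp4 were picked to describe their lists after values were seen, and so were the promoter motifs. The members and lists were chosen with earlier results of these data known. Alternatives were another pseudocount, other filters and normalizations, no trend, a replicate block, centering per chromosome, voom on the recovered reads and leaving out each tumor. Whether counting used strand is not given in the sources used here, so overlapping genes and the near copies C4a and C4b, C1s1 and C1s2, C1ra and C1rb, and Cd59a and Cd59b are uncertain. Values of some list genes are not reported here, though the lists' counts and medians include them.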

Additional observations from a re-analysis of the deposited data

How the results depend on the processing

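No member had an adjusted p under 0.05 in any alternative, and C1qa, C1qb, C1qc, C1s1 and C3 kept a higher mean in anti-PD-1 tumors in all of them. The log2 fold change changed sign without 1 tumor in C2 (0.0380 without IgG replicate 2), C4b (0.00819 without anti-PD-1 replicate 2) and Serping1 (-0.00386 without anti-PD-1 replicate 1). Leaving out single tumors, it ran from -0.47 to 0.0380 for C2, from -0.92 to 0.00819 for C4b and from -0.00386 to 0.88 for Serping1. Quantile normalization lowered C1qa to 0.16.

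Members with an unadjusted p under 0.05 numbered 0 in the comparison as reported, from 0 to 2 with each tumor left out (C1s1 and Serping1 without anti-PD-1 replicate 2), and 1 with the replicate number as a block (C3, unadjusted p = 0.0359). Other complement genes under that threshold numbered 3 to 7 with each tumor left out. Over all genes, those with an adjusted p under 0.05 numbered 1 with voom on recovered reads and 0 to 12 with each tumor left out (12 without IgG replicate 1, 1 without IgG replicate 3). Those with an unadjusted p under 0.05 numbered 960 to 2678 (960 without IgG replicate 2, 1153 without anti-PD-1 replicate 3). The cause was not tested.

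Signs also changed in some alternatives among 6 other complement genes with adjusted p above 0.7. Leaving out single tumors, the log2 fold change ran from -0.30 to 0.19 for C1s2, from -0.60 to 0.00511 for Cfd, from -0.0919 to 0.10 for Vtn, from -0.38 to 0.49 for Susd4, from -0.10 to 0.37 for C3ar1 and from -0.00828 to 0.31 for Itgb2. With 0.1 added to the FPKM, Vtn was -0.00795 and Susd4 0.0273. With voom they were -0.0270 and 0.0123. Vtn was -0.0696 with chromosomes centered, and Susd4 was 0.0212 with quantile normalization.

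Deviations of same-numbered tumors correlated at -0.16, 0.00 and 0.19, so the numbers were not taken as pairs. The replicate block gave 1725 genes with an unadjusted p under 0.05 in place of 1847 and moved no member past the adjusted threshold. Cfb, with 8 to 48 reads, limits what its level can show.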
